A study of Oryctolagus cuniculus with 20 samples.

Results

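Condylar cartilage of the rabbit jaw joint was compared between 8 weeks and 2 weeks of internal derangement, on 8 of the series' 20 one-colour microarrays. The members were chosen by their titles: 4 arrays of left joints collected 8 weeks after derangement and 4 collected after 2 weeks. All rabbits were male and 6 months old. Both groups had been operated, and neither is an untreated or sham-operated control. The other 12 arrays, 4 of untreated rabbits and 4 each of 1 and 4 weeks of derangement, are used here for the common error and as reference levels. Each group was labelled as 4 rabbits that also served histology and PCR, so arrays were taken as separate animals.

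The temporomandibular joint hinges the lower jaw on the skull, with a disc of fibrous tissue between the bones. In internal derangement the disc is displaced and the joint is loaded abnormally. The condyle is covered by a fibrous layer over proliferating cells, over chondrocytes that secrete type II collagen and aggrecan, and over hypertrophic chondrocytes that make type X collagen before bone replaces them. The comparison asks how cartilage late in the disease course differs from cartilage soon after the operation.

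The 2 groups were hybridised on separate slides and scanned on different days. Scan day 1 held the control and 2-week arrays, and scan day 2 held the 1-, 4- and 8-week arrays. Time of derangement, slide and scan day cannot be told apart in this comparison. Several array measures moved with the groups, and their part in the results was not tested. Between 60.3% and 61.8% of spots were well above background on the 8-week arrays, against 52.8% to 58.9% on the 2-week arrays. The number of spots carrying a small substitute value for a low signal was 9473 to 10349 at 8 weeks and 11158 to 13375 at 2 weeks. The median local background was 29.5 to 31 intensity units at 8 weeks and 24 to 27 at 2 weeks. The 75th percentile of signal overlapped, at 350.7 to 497.0 and 302.2 to 473.0. Arrays correlated at 0.972 to 0.986 within 8 weeks, at 0.963 to 0.984 within 2 weeks and at 0.957 to 0.977 between them, over 26001 probes of a common design.

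Levels below are log2 intensities relative to the 75th percentile of the array, so a level of 0 lies at that percentile. Differences are 8 weeks minus 2 weeks on the log2 scale with the standard error (SE) of the limma fit, and a call means a Benjamini-Hochberg adjusted p under 0.05. Group levels carry a standard deviation (SD) over 4 arrays. The scanner software marks spots that stand well above background, and a probe needed that mark on 3 or more arrays of the 2-week or of the 8-week group to be kept.

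The main pattern was a split by signal strength: dim probes were called higher at 8 weeks and bright probes lower. Of 26001 kept probes, 2296 were called (8.83%), 1288 higher (4.95%) and 1008 lower (3.88%) at 8 weeks. The called-higher probes had a median level of -3.36 at 2 weeks and -2.34 at 8 weeks. The called-lower probes had a median level of 3.23 at 2 weeks and 2.76 at 8 weeks. Over the 6501 kept probes with the lowest mean level, 816 were called higher and 60 lower, and the median difference was 0.27. Over the 6500 with the highest mean level, 18 were called higher and 726 lower, and the median difference was -0.18. Over all kept probes the median difference was 0.01.

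**Figure D1:**
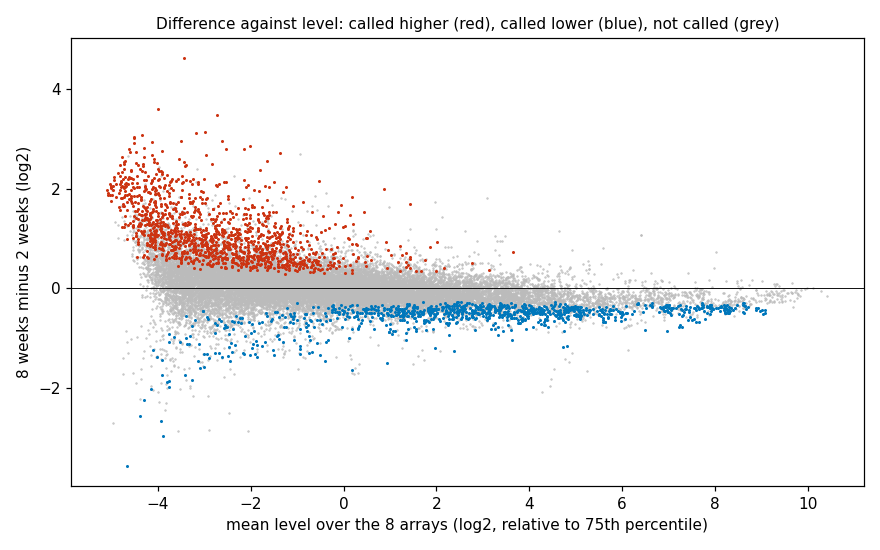
Each point is a kept probe, with its mean level over the 8 arrays on the x axis and the 8 weeks minus 2 weeks difference on the y axis, both in log2 units. The 1288 probes called higher sit mostly at low levels and the 1008 called lower mostly at high levels.

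These calls depended strongly on how dim signal and background were treated. With the normexp background correction in place of the scanner's processed signal, 33 probes and 0 named genes were called by limma. That alternative started from the mean spot signal and the local background, and it also added an offset of 50 intensity units. The separate parts of these steps in its results were not tested. At an unadjusted p under 0.05 that correction left 2110 probes and 64 named genes, against 6132 and 164 with the processed signal. Of the 1288 probes called higher, 638 had a difference above 0 under normexp, while 967 of the 1008 called lower stayed below 0. With an offset of 50 intensity units added to the processed signal, an alternative chosen after seeing the data, 722 probes were called. The scaling changed which probes passed the threshold, and so the share of calls in each direction. Of the calls, 56.1% were higher at 8 weeks in the main analysis, 26.5% with each array centred on its median, 68.6% with quantile normalization and 80.1% with the percentile taken over probes well above background on all arrays. Those scalings moved the median of all kept probes to -0.17, 0.01 and 0.12. Under each of them all 1288 probes called higher in the main analysis stayed above 0. At least 1007 of the 1008 called lower stayed below 0. Leaving out 8-week replicate 1, 8-week replicate 4 or 2-week replicate 1 reduced the probes called to 1354, 1515 and 1401.

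The calls also followed the scan day. Between groups scanned on different days, 4.13% to 14.3% of the probes kept for the pair were called, with 13.0% for 8 weeks against control and 8.52% for 4 weeks against control. Between groups scanned on the same day the share was 0.0152% to 1.27%. Within day 2, 8 weeks against 4 weeks gave 161 calls (0.613%) and 8 weeks against 1 week gave 4 (0.0152%). The contrast was smaller at an unadjusted limma p under 0.05, with 4880 to 7644 probes between days and 1841 to 3932 within a day. At that threshold 8 weeks against 4 weeks gave 3481 probes and 8 weeks against 1 week gave 3932. For 693 of the 2296 called probes, all 12 arrays of 1, 4 and 8 weeks lay on one side of all 8 arrays of control and 2 weeks, against 810 of all 26001 kept probes (3.12%). That pattern covered 627 of the 1288 called higher (48.7%) and 66 of the 1008 called lower (6.55%). By group means, the 1- and 4-week groups both lay on the 8-week side of 2 weeks for 1254 of the higher (97.4%) and 900 of the lower probes (89.3%). These comparisons share the 2-week arrays. On 119 called probes the 8-week arrays lay beyond all other 16 arrays, against 194 of all kept probes (0.746%). On 53 called probes the 2-week arrays lay beyond all others, against 82 of all kept probes (0.315%). The comparisons of 8 weeks with 4 weeks and with 2 weeks share the 8-week arrays. Of the 1008 probes lower at 8 weeks than at 2 weeks, 91 were also called lower than at 4 weeks, and of the 1288 higher probes 18 were also called higher, where 149 of all 26001 (0.573%) were called in that comparison. Against 1 week, 1 of the higher and 0 of the lower probes were also called in limma, where 3 of all 26001 (0.0115%) were called.

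**Figure D2:**
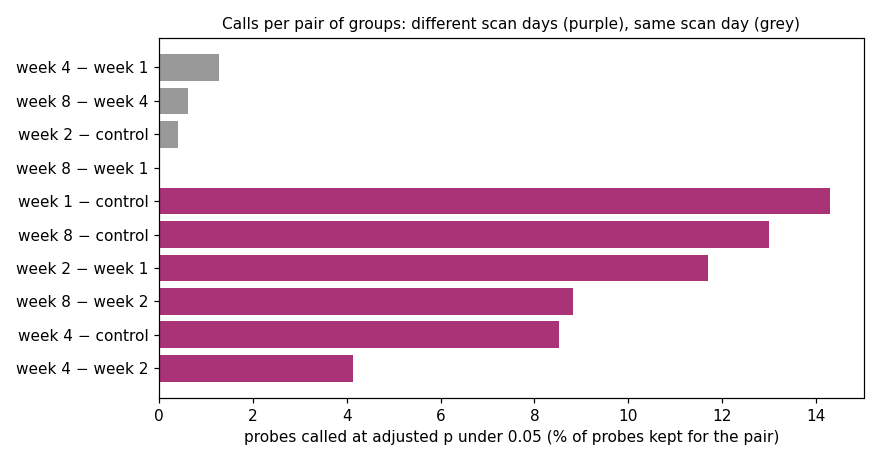
Bars give the share of probes called at adjusted p under 0.05 for each pair of groups, in percent of the probes kept for that pair. Pairs scanned on different days reached 4.13% to 14.3%, with 8 weeks minus 2 weeks at 8.83%, and pairs scanned on the same day stayed at or below 1.27%.

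Of the 43603 probes, 3104 could be named, for 1029 genes. Of these genes, 707 had a kept probe, and each is described by its brightest kept probe. Among them 62 were called (8.77%), 40 higher (5.66%) and 22 lower (3.11%), close to the shares over all probes. The median difference of the named genes was 0.03, and the 8- and 2-week arrays did not overlap for 132 (18.7%). For 26 of the 62, all day-2 arrays lay on one side of all day-1 arrays, against 33 of all 707 (4.67%).

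The sequences of 4 array probes are shown because the values of genes described below in either direction rest on them. They are the 60-base probes as deposited, 5′ to 3′, all in lower case because no stretch was singled out. Each has at least 1 reading frame without a stop codon. Genome positions were not used here.
GJA10: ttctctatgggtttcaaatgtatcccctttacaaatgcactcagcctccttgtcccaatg
SERPINB2: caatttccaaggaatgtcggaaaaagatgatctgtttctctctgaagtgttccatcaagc
CXCL8: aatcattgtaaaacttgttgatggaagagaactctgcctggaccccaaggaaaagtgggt
RAB2A: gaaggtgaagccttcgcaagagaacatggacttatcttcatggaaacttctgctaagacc

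The GJA10 probe holds 43.3% G and C, the SERPINB2 probe 40%, the CXCL8 probe 43.3% and the RAB2A probe 45.0%. Over all kept probes the median G and C content was 43.3%. It was 45.0% for the probes called higher at 8 weeks and 41.7% for those called lower. Between the 25th and 75th percentiles, the called-higher probes spanned 43.3% to 55% and the called-lower probes 36.7% to 45%. Level differed between these sets too, as given above, and the part of base content in the result was not tested.

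Genes higher at 8 weeks mostly had dim probes, and the largest rises included genes for membrane channels, receptors and secreted peptides. Their median level was -3.84 at 2 weeks and -2.57 at 8 weeks, and 17 of the 40 were not well above background on any 2-week array. For those 17 the 2-week value has only an upper limit. Where a fold is given for such a gene, it is a lower bound, the 8-week mean over the mean of each 2-week array's detection limit or the probe's own value, whichever was higher. An adjusted p printed beside a bound belongs to the fitted difference, which uses values below detection, and is no test of the bound. These 17 genes were kept only through their 8-week arrays.

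GJA10 is a connexin, a protein that forms gap junction channels between neighbouring cells. Its level was -3.12, -3.18, -3.13 and -2.88 on the 8-week arrays and -5.91, -5.47, -5.31 and -5.56 on the 2-week arrays. The groups did not overlap, and no 2-week array was well above background. The gene was at least 1.63-fold higher at 8 weeks (adjusted p = 1.6e-07 for the fitted difference of 2.49). The 1- and 4-week means were -2.52 and -3.01 and the control mean was -5.53, so its levels split by scan day. Under normexp the difference was 0.05.

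SERPINB2, the plasminogen activator inhibitor that blocks urokinase, read -2.83, -3.03, -2.63 and -2.54 at 8 weeks. At 2 weeks it read -4.26, -5.88, -6.33 and -4.62, not well above background on any array. It was at least 2.03-fold higher at 8 weeks (adjusted p = 0.000342). All other day-2 arrays also lay above all day-1 arrays, with means of -2.46 at 1 week, -2.97 at 4 weeks and -4.91 in controls. Under normexp the difference was 0.21.

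The other genes with the largest rises had the same split by scan day, except VIPR1. HTR3B, a subunit of a serotonin-gated channel, went from -5.96 ± 0.34 (SD, n = 4) at 2 weeks to -3.98 ± 0.34 at 8 weeks. NPPA, the precursor of atrial natriuretic peptide, went from -5.88 ± 0.39 to -4.13 ± 0.34. Neither was well above background on a 2-week array, and both 8-week means lay in or below the range of the 2-week detection limits, -4.11 to -3.31, so no fold or test is given. CASP14, a caspase of skin differentiation, was also not well above background on any 2-week array. Its 8-week mean of -3.44 lay within the same range of detection limits, so no fold or test is given for it either. KCNE1, a regulatory subunit of potassium channels, was at least 1.75-fold higher (adjusted p = 0.00847).

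CACNA1E, a voltage-gated calcium channel subunit, rose by 1.79 (SE 0.33, adjusted p = 0.00233). APOC4, an apolipoprotein, rose by 1.72 (SE 0.33, adjusted p = 0.00284). LEP, the adipokine leptin, rose by 1.60 (SE 0.35, adjusted p = 0.00869). The 2-week means of these 3 genes, -3.85, -3.84 and -3.94, lay within the range of the 2-week detection limits, -4.11 to -3.31, so the size of each rise is uncertain. On the day-2 arrays of 1 and 4 weeks these 3 genes also read above every control and 2-week array. With the offset of 50 their differences were 0.80, 0.76 and 0.61, and with it or normexp none of the 3 was called.

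VIPR1, a receptor for vasoactive intestinal peptide, was at least 1.95-fold higher at 8 weeks (adjusted p = 0.004). Its 8-week levels were -3.38, -3.35, -1.37 and -3.18 and its 2-week levels -4.96, -4.79, -4.35 and -4.64. A single 8-week array stood well above the others, and the groups still did not overlap. The VIPR1 values of -3.38 and -3.35 at 8 weeks lay within the range of the 2-week detection limits, -4.11 to -3.31.

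CXCR2 and SCNN1A were well above background on all 8 arrays. CXCR2, the receptor of CXCL8 on neutrophils, read -0.38, -0.61, -0.50 and -0.52 at 8 weeks and -2.08, -1.38, -1.42 and -1.72 at 2 weeks. It rose by 1.15 (SE 0.19, adjusted p = 0.000817). SCNN1A, the alpha subunit of the epithelial sodium channel, read -0.50, -0.57, -0.63 and -0.52 at 8 weeks and -2.06, -1.74, -1.87 and -1.54 at 2 weeks. It rose by 1.25 (SE 0.21, adjusted p = 0.00118), and all 5 of its kept probes pointed upwards, 4 of them called. KCNJ11, the pore of an ATP-sensitive potassium channel, was mostly below that mark at 2 weeks. It read -1.78, -2.09, -2.04 and -2.16 at 8 weeks and -4.04, -3.45, -3.50 and -3.43 at 2 weeks, where 1 of 4 arrays was well above background. Its fitted rise of 1.59 (SE 0.19, adjusted p = 3.21e-05) is set against 2-week values near the detection limit, which ran from -4.11 to -3.31 on those arrays. The call of each of these 3 genes held under every alternative that gave a value except normexp, where the differences were 0.59, 0.65 and 0.15. CXCR2 and KCNJ11 split by scan day, and 1 control array reached the day-2 range of SCNN1A.

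CXCL8, the neutrophil-attracting chemokine interleukin 8, read -0.65, -0.98, -1.04 and -0.88 at 8 weeks and -2.49, -2.27, -2.15 and -1.65 at 2 weeks. It rose by 1.25 (SE 0.28, adjusted p = 0.009). Its 4 kept probes disagreed, with differences from -0.65 to 1.25, and 3 of them pointed upwards. With the mean over its kept probes the call was lost. The 1- and 4-week means, -0.73 and -0.88, were close to the 8-week mean of -0.89, and the control mean was -2.06.

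CLU, a secreted chaperone abundant in the surface zone of articular cartilage, did not follow the scan day. It read 3.81, 3.95, 4.22 and 4.04 at 8 weeks and 3.71, 2.91, 3.18 and 3.32 at 2 weeks. It rose by 0.73 (SE 0.19, adjusted p = 0.0237). Its group means were 3.63 in controls, 3.05 at 1 week and 3.23 at 4 weeks, so the highest mean was that of 8 weeks. Against 4 weeks, scanned on the same day, the adjusted p was 0.0872. The difference was 1.07 under normexp and 0.55 with median centring, both without a call (adjusted p = 0.152 and 0.0937). Without 8-week replicate 3 or 4, or 2-week replicate 2 or 3, the call was also lost, with adjusted p up to 0.0759.

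**Figure D3:**
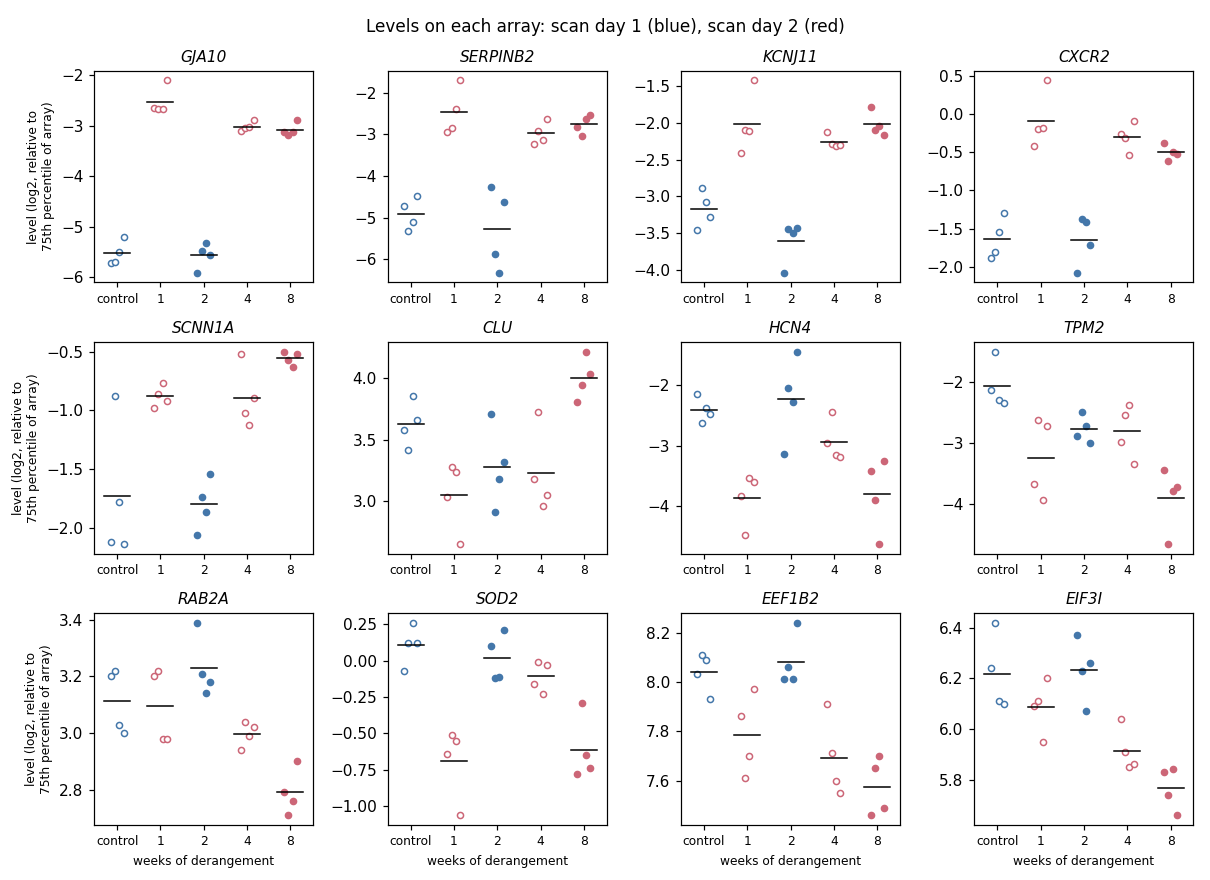
Points are arrays and bars are group means for 6 genes higher and 6 genes lower at 8 weeks, with group on the x axis and the level in log2 units on the y axis, on a scale of its own in each panel. Filled points are the 8- and 2-week arrays, blue is scan day 1 and red is scan day 2. All day-2 arrays lie on one side of all day-1 arrays for GJA10, SERPINB2, KCNJ11 and CXCR2 but not for CLU, HCN4, TPM2, RAB2A and SOD2. For HCN4 and SOD2 every day-2 group mean still lies below both day-1 group means.

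Genes lower at 8 weeks mostly had bright probes and small differences. The median difference of the 22 was -0.51, and their median level was 4.68 at 2 weeks and 4.18 at 8 weeks. No gene among them was below background on every 8-week array. Only RPL23 of the 22 had all day-2 arrays on one side of all day-1 arrays. By group means, the 1- and 4-week groups both lay on the 8-week side of 2 weeks for 20 of the 22. The same held for 37 of the 40 higher genes. These comparisons share the 2-week arrays.

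HCN4, the pacemaker channel that carries a current on hyperpolarisation, had the largest called fall. It read -3.42, -3.90, -4.63 and -3.25 at 8 weeks, where 2 of 4 arrays were well above background, and -3.14, -2.04, -2.27 and -1.44 at 2 weeks. It fell by 1.58 log2 units (SE 0.33, adjusted p = 0.00595). Its mean was -3.87 at 1 week, -2.94 at 4 weeks and -2.41 in controls. The call was lost when only the 8 arrays were fitted (adjusted p = 0.052) and under normexp, where the difference was -1.03.

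TPM2, the beta-tropomyosin of muscle thin filaments and of fibroblasts, read -3.44, -4.65, -3.78 and -3.72 at 8 weeks and -2.89, -2.49, -2.73 and -3.00 at 2 weeks. It fell by 1.12 log2 units (SE 0.31, adjusted p = 0.0333). The call was lost in 7 of the 8 analyses that left out an array, all but that without 8-week replicate 1, with adjusted p up to 0.104. It was also lost under normexp (adjusted p = 0.442), with the offset of 50 (0.159) and with no filter on dim probes (0.0605). The percentile over probes well above background on all arrays (0.0571) and the replicate block (0.0511) ended it too.

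SOD2, the mitochondrial superoxide dismutase, read -0.78, -0.29, -0.65 and -0.74 at 8 weeks and 0.10, -0.12, -0.11 and 0.21 at 2 weeks. It fell by 0.64 log2 units (SE 0.14, adjusted p = 0.00682), with 5 of 5 probes pointing downwards and 4 called. Its 1-week mean was -0.69, its 4-week mean -0.11 and its control mean 0.11. The call was lost under normexp alone of the alternatives tried, where the difference was -0.49.

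CRYAA, a small heat shock protein best known from the lens, was 1 of 2 called genes that were also called against 4 weeks, within scan day 2, where 2 of all 707 named genes (0.283%) were called. It read 0.01, -0.46, -0.04 and 0.30 at 8 weeks and 1.09, 0.77, 0.68 and 0.33 at 2 weeks, a fall of 0.76 log2 units (SE 0.19, adjusted p = 0.0154). The 4-week mean was 0.96 ± 0.24 (SD, n = 4), and the difference from 4 weeks, -1.0, was also called (adjusted p = 0.0136). The call against 2 weeks was lost without 8-week replicate 2 or 2-week replicate 1 (adjusted p up to 0.0624), when only the 8 arrays were fitted (adjusted p = 0.0586) and under normexp (-0.64).

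The rest of the largest falls lay between 0.51 and 0.86 on the log2 scale. CYP7A1, the rate-limiting enzyme of bile acid synthesis in liver, fell by 0.86 (SE 0.22, adjusted p = 0.0191), on a single kept probe, and lost the call without 8-week replicate 2 or 3 or 2-week replicate 2 or 3 (adjusted p up to 0.0628). That probe had mean levels of 7.4 at 2 weeks and 6.53 at 8 weeks, above the 5.72 and 5.38 of COL10A1. Whether it reads only the transcript of this liver enzyme was not tested. Quantile normalization ended the calls of CYP7A1 (-0.64, adjusted p = 0.14), DYNLL1 (-0.26, adjusted p = 0.255), LAPTM4A (-0.24, adjusted p = 0.384) and NASP (-0.37, adjusted p = 0.0971). DYNLL1, a light chain of dynein, fell by 0.54 (SE 0.14, adjusted p = 0.0205), and 12 of its 12 kept probes pointed downwards, 11 of them called. Without 8-week replicate 1 or 4 or 2-week replicate 1 its adjusted p reached 0.078. LAPTM4A, a lysosomal membrane protein, fell by 0.52 (SE 0.15, adjusted p = 0.0343), a call that stood only without 2-week replicate 2 or 3 among the analyses that left out an array (adjusted p up to 0.124). NASP, a histone chaperone, fell by 0.51 (SE 0.13, adjusted p = 0.0211), and without 8-week replicate 2 or 4 or 2-week replicate 1 or 4 its adjusted p reached 0.068. SNURF read -0.53 (SE 0.15, adjusted p = 0.0334), but another probe of the gene was called in the opposite direction, at 0.68 (adjusted p = 0.0315), and the mean over its 10 kept probes gave 0.05. Its call stood without 8-week replicate 3 but in none of the other 7 analyses that left out an array (adjusted p up to 0.099).

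Genes of the ribosome and of translation were gathered as a list after their values were seen, so the count describes these samples only. Of 20 with a kept probe, 5 were lower, 0 higher and 15 not called, with a median difference of -0.21 against 0.03 over the named genes, of which 3.11% were called lower. The 5 genes called had bright probes, and the 6500 brightest kept probes had a median of -0.18 with 726 called lower. EEF1B2, an elongation factor subunit, read 7.46, 7.65, 7.70 and 7.49 at 8 weeks and 8.01, 8.06, 8.01 and 8.24 at 2 weeks. It fell by 0.51 log2 units (SE 0.11, adjusted p = 0.00584), with 5 of 5 probes called. EIF3I, a subunit of an initiation factor, read 5.83, 5.74, 5.84 and 5.66 at 8 weeks and 6.37, 6.23, 6.07 and 6.26 at 2 weeks. It fell by 0.47 log2 units (SE 0.10, adjusted p = 0.00547), and its 8-week arrays lay below all other 16 arrays, a pattern of 5 of the 707 named genes (0.707%) in either direction. RPL23 and RPS20, proteins of the large and the small ribosomal subunit, fell by 0.49 and 0.43 (SE 0.12 each, adjusted p = 0.0147 and 0.0368). EIF2AK1, a kinase that restrains translation when haem is short, fell by 0.44 (SE 0.10, adjusted p = 0.0116). EEF1A1, at -0.09 (SE 0.10), and RPLP0, at 0.62 (SE 0.29), were not called. Quantile normalization and normexp each ended the calls of EEF1B2, EIF3I, RPL23, RPS20 and EIF2AK1. The percentile over probes well above background on all arrays also ended those of RPL23, RPS20 and EIF2AK1. A fit of only the 8 arrays ended those of RPL23 and EIF2AK1. The mean over kept probes ended those of EIF3I, RPS20 and EIF2AK1. RPS20 also lost its call with the offset, with no filter on dim probes and with the replicate block. Without 8-week replicate 2 or 2-week replicate 4 the adjusted p of RPL23 reached 0.0532, and that of RPS20 stayed under the threshold only without 2-week replicate 1 and otherwise reached 0.112.

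RAB2A, a small GTPase of transport between the endoplasmic reticulum and the Golgi, was the other named gene called whose 8-week arrays lay below all other arrays. It read 2.79, 2.71, 2.76 and 2.90 at 8 weeks and 3.39, 3.21, 3.14 and 3.18 at 2 weeks, a fall of 0.44 log2 units (SE 0.09, adjusted p = 0.00547). The other 5 kept probes of the gene had differences above 0, up to 0.13, and the mean over its probes was not called (adjusted p = 0.995). CALR, a chaperone that folds glycoproteins in the endoplasmic reticulum, fell by 0.46 (SE 0.12, adjusted p = 0.0217), with 5 of 5 probes called, while HSP90B1 and SERPINH1 of the same list stood at 0.00 and -0.01. The call of CALR was lost with quantile normalization and without 8-week replicate 2 or 3 or 2-week replicate 1, 2 or 4, with adjusted p up to 0.0671.

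**Figure D4:**
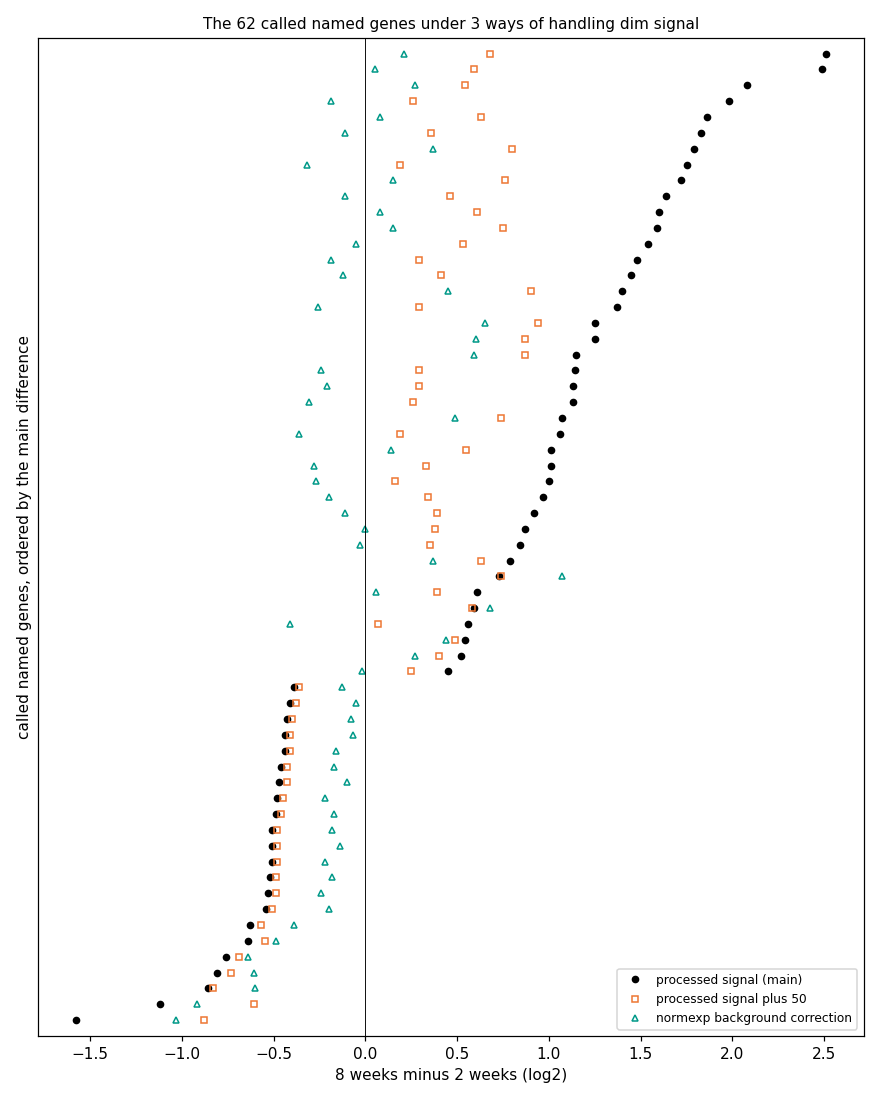
For each of the 62 named genes called, ordered by difference on the y axis, the x axis gives the 8 weeks minus 2 weeks difference in log2 units under the processed signal (filled circles), the processed signal plus 50 (squares) and normexp (triangles). The median of the 40 higher genes was 1.14, 0.44 and 0.02, and that of the 22 lower genes -0.51, -0.48 and -0.19.

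Cartilage genes gave no call. Of the hyaline cartilage list, 3 genes had a kept probe and 0 were called, with a median difference of 0.17. COL2A1, type II collagen, read 8.53, 6.42, 7.50 and 9.33 at 8 weeks and 7.98, 8.11, 8.24 and 6.79 at 2 weeks. The difference was 0.17 (SE 0.60, adjusted p = 0.912), and the 8-week arrays spanned the whole 2-week range. ACAN, the aggrecan core protein, differed by 0.37 (SE 0.38, adjusted p = 0.632). SOX9, the regulator that drives chondrocyte identity, was well above background on 0 of 4 arrays at 2 weeks and 2 of 4 at 8 weeks and was not kept.

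Of 7 kept genes of hypertrophy and bone transition, 0 were called (median -0.17). COL10A1, type X collagen, read 6.53, 3.45, 3.89 and 7.66 at 8 weeks and 5.77, 6.07, 6.24 and 4.78 at 2 weeks, with a difference of -0.33 (SE 0.87, adjusted p = 0.872). The 8-week SD of 2.04 was wider than the 2-week SD of 0.65. The same 8-week arrays, replicates 1 and 4, were the highest for COL2A1 and for FRZB, a secreted WNT antagonist, at 3.58 and 4.45 against 3.1 and 3.14. They were the lowest for DCN, the fibrous matrix proteoglycan decorin, at 4.83 and 5.43 against 6.32 and 6.24. IHH, the growth plate hedgehog ligand, differed by -0.17 (SE 0.54, adjusted p = 0.895), and RUNX2, the transcription factor of hypertrophy, by 0.39 (SE 0.18, adjusted p = 0.208).

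Signalling lists had no calls in limma. WNT and hedgehog genes gave 0 of 8 (median -0.36) and TGF-beta and BMP genes 0 of 7 (median -0.25). WNT3 came nearest, at -1.28 (SE 0.41, adjusted p = 0.0599), with all 8-week arrays below all 2-week arrays. It was called with median centring (adjusted p = 0.029), the offset of 50 (0.0293), array weights (0.0156), without the 1-week group (0.0173) and without 8-week replicate 4. FRZB differed by 0.31 (SE 0.34, adjusted p = 0.641) and TGFB1 by 0.36 (SE 0.20, adjusted p = 0.292). Growth factors and their receptors gave 0 of 12 (median 0.10), with IGF1R, the receptor of insulin-like growth factor, at 0.33 (SE 0.13, adjusted p = 0.117). The immediate early genes gave 0 of 4 (median 0.50), with the transcription factor JUN at 1.1 (SE 0.42, adjusted p = 0.111).

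Matrix-degrading enzymes and their inhibitors gave 1 call of 25, SERPINB2 (median 0.08). MMP13, the collagenase of hypertrophic cartilage, differed by 0.31 (SE 0.26, adjusted p = 0.53), MMP3, stromelysin, by -0.01 (SE 0.26, adjusted p = 0.987), and their inhibitor TIMP1 by 0.08 (SE 0.24, adjusted p = 0.9). ADAMTS4, an aggrecanase, was not well above background on any of the 8 arrays. Osteoclast genes gave 0 of 4 (median 0.14). ACP5, the osteoclast acid phosphatase, read 8.29, 8.02, 8.91 and 8.27 at 8 weeks and 7.14, 7.90, 7.80 and 7.77 at 2 weeks. The groups did not overlap, and the difference of 0.72 missed the threshold (SE 0.24, adjusted p = 0.0716). Quantile normalization gave 1.0 with an adjusted p of 0.0229, and 2 other alternatives also called it.

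Inflammatory cytokines and receptors gave 2 higher of 17, CXCR2 and CXCL8 (median 0.12). IL1B, interleukin 1 beta, differed by -0.11 (SE 0.66, adjusted p = 0.949), and TNF by 0.61 (SE 0.28, adjusted p = 0.189). Prostaglandin genes gave 0 of 10 (median -0.13), with the constitutive cyclooxygenase PTGS1 at 0.69 (SE 0.22, adjusted p = 0.0561). PTGS1 was called under 6 alternatives, with adjusted p as low as 0.00869 with array weights. The leukocyte lists gave 0 of 6 for macrophages (median -0.07), where CD14 differed by -0.26 (SE 0.30, adjusted p = 0.679), 1 higher of 8 for neutrophils (CXCR2, median 0.48) and 1 higher of 3 for lymphocytes (CD5, median 0.35). CD5, which sits on the surface of T cells, was not well above background on any 2-week array. Its 8-week mean of -3.36 lay within the range of the 2-week detection limits, -4.11 to -3.31, so no fold or test is given. CD5 lost the call in 7 of the 8 analyses that left out an array, all but that without 2-week replicate 4. Of the 51 kept probes for rearranged immunoglobulin clones, 10 were called, all higher, where 4.95% of all kept probes were called higher. Their median difference was 0.23, and 6 of the 10 were not well above background on any 2-week array.

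Fibrous matrix genes gave 0 of 14 (median -0.10). LUM, the corneal and fibrous proteoglycan lumican, differed by -0.63 (SE 0.32, adjusted p = 0.251), DCN by -0.40 (SE 0.43, adjusted p = 0.637) and COL5A1, type V collagen, by -0.36 (SE 0.16, adjusted p = 0.186). Of the 4 synovial and surface genes, CLU was called and 3 were not (median 0.06). HAS2, a hyaluronan synthase, differed by 0.01 (SE 0.43, adjusted p = 0.993). Smooth muscle and actin genes gave 0 of 6 (median -0.19), with CALD1, caldesmon, at -0.36 (SE 0.13, adjusted p = 0.0814). Endothelial genes gave 0 of 10 (median 0.00), with NOS3, the endothelial nitric oxide synthase, at 0.64 (SE 0.21, adjusted p = 0.0705). CALD1 and NOS3 were each called under 3 alternatives.

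Ion channels, the list with the most kept genes, also held the most calls, 6 higher and 1 lower of 32, where 5.66% of all named genes were called higher and 3.11% lower (median 0.17, or 0.13 with genes below background at their bound). The higher ones were HTR3B, CACNA1E, KCNE1, KCNJ11, SCNN1A and KCNA5, and the lower one HCN4. KCNA5, a voltage-gated potassium channel, rose by 0.84 (SE 0.16, adjusted p = 0.0036). Solute carriers gave 3 higher of 15 (median 0.26). SLC12A3, the thiazide-sensitive sodium chloride cotransporter of kidney, was at least 1.70-fold higher (adjusted p = 5.53e-05). SLC5A1, the sodium glucose cotransporter of gut, rose by 1.07 (SE 0.23, adjusted p = 0.00667, or 0.0538 when only the 8 arrays were fitted), and SLC22A6, the renal organic anion transporter, by 0.61 (SE 0.12, adjusted p = 0.00275). All 9 genes called higher in these lists lost the call under normexp, with differences from -0.19 to 0.65. All but SCNN1A split by scan day.

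Among the remaining lists, the lipid and adipokine genes gave 2 higher, LEP and APOC4, and 1 lower, CYP7A1, of 14 (median -0.13). Xenobiotic metabolism gave 1 higher and 1 lower of 17 (median 0.02). The higher one was FMO2, a flavin monooxygenase of lung, at 1.01 (SE 0.26, adjusted p = 0.0237), and without 8-week replicate 1 or 4 or 2-week replicate 1 or 4 its adjusted p reached 0.0893. The 2-week mean of FMO2, -3.82, lay within the range of the 2-week detection limits, -4.11 to -3.31. Apoptosis genes gave 1 higher, CASP14, and 1 lower of 5 (median -0.10). Connexins gave 1 higher of 5, GJA10 (median 0.24). Heat shock and stress genes gave 1 lower of 7, SOD2 (median -0.02), and endoplasmic reticulum chaperones 1 lower of 4, CALR (median -0.23). Nerve and pain genes gave 1 higher of 5, TH, tyrosine hydroxylase, which starts the synthesis of catecholamines. TH was not well above background on any 2-week array. Its 8-week mean of -3.33 lay within the range of the 2-week detection limits, so no fold or test is given. The list median was 0.94, or 0.45 with TH set at a lower bound from those limits. Hypoxia and glycolysis gave 0 of 11 (median -0.09), with LDHB, a lactate dehydrogenase subunit, at -0.30 (SE 0.18, adjusted p = 0.328). The cell cycle gave 0 of 6 (median -0.09), with cyclin D1, CCND1, at -0.51 (SE 0.30, adjusted p = 0.326). OVGP1, known as oviductin, split by scan day with a rise of 1.01 (SE 0.24, adjusted p = 0.0144). Without 8-week replicate 1 or 2-week replicate 1 its adjusted p reached 0.0586.

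**Figure D5:**
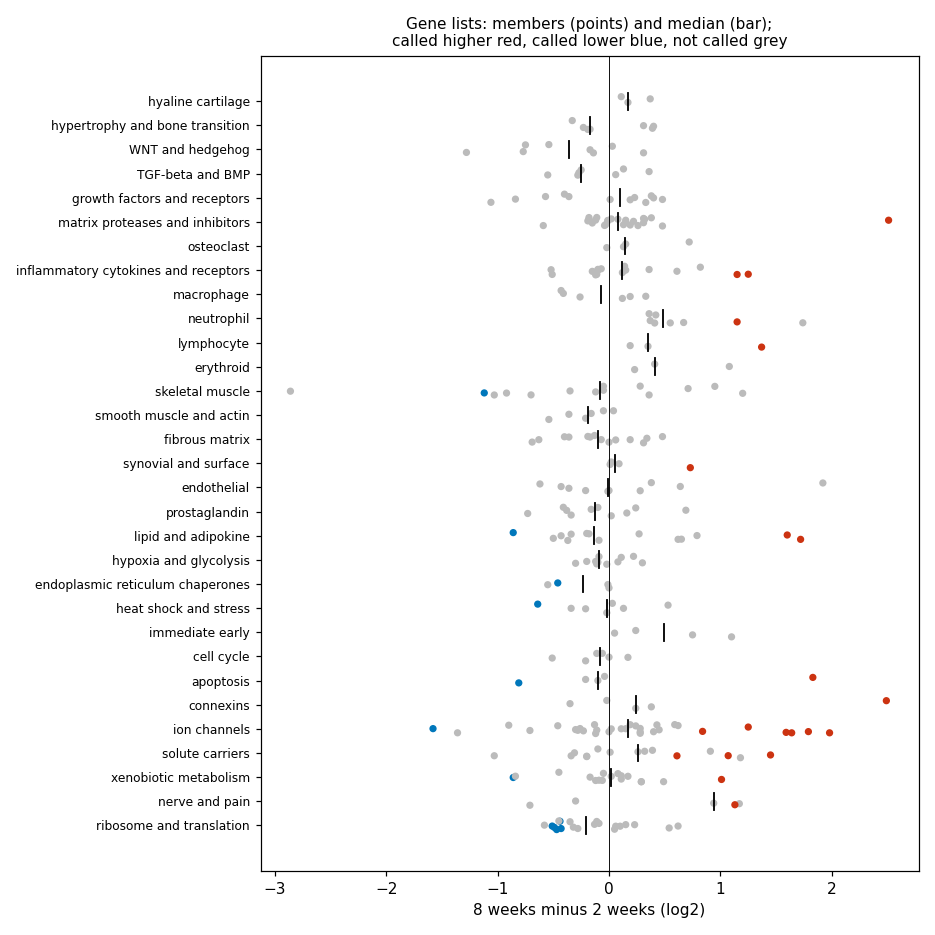
Each point is a gene with a kept probe, placed by its 8 weeks minus 2 weeks difference in log2 units, and the bar is the median of its list. Calls are scattered over many lists, with 6 higher and 1 lower of 32 ion channels, while the cartilage, hypertrophy and fibrous matrix lists had 0.

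Skeletal muscle genes, whose transcripts can come from muscle attached at the joint, gave 1 lower of 14, TPM2 (median -0.09). Of the 14, 5 had differences above 0, among them PHKG1 at 1.2, TTN at 0.95 and TNNI2 at 0.71, all without a call. MYL1, a fast muscle myosin light chain, read -4.67, -3.49, -5.21 and -3.92 at 8 weeks, where 2 arrays were well above background, and 0.59, -2.40, -2.41 and -1.60 at 2 weeks. All 8-week arrays lay below all other 16 arrays, a pattern of 5 of the 707 named genes (0.707%) in either direction. The MYL1 difference of -2.86 was not called (SE 1.21, adjusted p = 0.157). TNNC2, fast troponin C, differed by -0.70 (SE 1.05, adjusted p = 0.755). Its 2-week levels ran from -3.26 to -0.05 and its 8-week levels from -3.22 to -2.71. The summed level of 5 muscle fibre markers, in multiples of the array's 75th percentile, was 0.486 to 1.94 at 2 weeks and 0.567 to 0.714 at 8 weeks, and MYH1 and NEB were not well above background on any of the 8 arrays. In controls the sum ran from 3.13 to 323. In whole tissue, fewer cells of a type and less RNA per cell cannot be told apart.

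Summed markers of 13 cell types overlapped between the groups, apart from the synovial pair and CD5, the single kept lymphocyte marker. A sum of linear levels mostly follows its brightest member. LEP, at mean levels of -3.94 and -2.34, hardly entered the adipocyte sum of 323 to 510 at 2 weeks and 319 to 440 at 8 weeks. The summed level of the chondrocyte markers COL2A1, ACAN and CNMD was 114 to 309 at 2 weeks and 87.3 to 658 at 8 weeks, so type II collagen marked the labelled tissue in both groups. Fibroblast markers summed to 1370 to 1620 and 1270 to 1410, osteoclast markers to 606 to 972 and 866 to 1200, and neutrophil markers to 1.79 to 43.2 and 3.02 to 33.1. Erythroid markers summed to 55.5 to 652 and 204 to 433, and HBA, alpha globin, of the erythroid list differed by 1.08 (SE 0.53, adjusted p = 0.223). HAS2 and CLU summed to 7.62 to 13.2 at 2 weeks and 14.2 to 18.7 at 8 weeks, and CLU was the called member. HAS2 had mean levels of -3.33 and -3.32, so this sum was nearly all CLU. CD5 stood at 0.0208 to 0.0576 at 2 weeks and 0.0741 to 0.126 at 8 weeks.

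Among probes with no gene name, the largest rise was of ENSOCUT00000010056, which the files describe as a cytochrome P-450d induced by polycyclic hydrocarbons. It read -0.85, -1.01, -1.23 and -1.36 at 8 weeks and -6.33, -5.88, -6.26 and -4.49 at 2 weeks, at least 6.37-fold higher (adjusted p = 1.12e-05). Its 1- and 4-week means were -0.02 and -0.59 and its control mean -3.16. The next, EB376038, an expressed sequence from a rabbit trigeminal nerve library, read -2.41, -1.50, -2.16 and -2.72 at 8 weeks. It was not above background on a 2-week array and was at least 3.0-fold higher (adjusted p = 2.19e-06). Its means in the other groups, -4.82 in controls, -4.70 at 1 week and -4.47 at 4 weeks, lay below every 8-week array. The largest falls were of ENSOCUT00000000316, at least 2.54-fold lower (adjusted p = 0.00111), and ENSOCUT00000004517, by 2.98 log2 units (SE 0.71, adjusted p = 0.0137). The latter read -5.02, -5.93, -6.41 and -4.11 at 8 weeks, where 1 of 4 arrays was well above background and the detection limits ran from -4.29 to -4.16. At 2 weeks it read -3.47, -1.89, -4.06 and -0.13, so the size of its fall is uncertain.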

How the data were processed

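Each deposited file holds the spot intensity of 1 array on a linear scale. Agilent Feature Extraction 10.7.1.1, named in the submitters' processing notes, made it, and per the file headers it removed spatial trends and put a small substitute where a signal was low. The value table that the authors deposited holds the same intensity values, uncentred. Its 4 columns labelled 8 weeks match arrays of that group other than the ones named, so which 8-week array carries which replicate number is uncertain, and the scanner files' numbers are used.

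Outlier spots, 14 to 62 per array here, were left out, and no spot was saturated. Intensities were put on log2 and the 75th percentile of the array was taken off. Group means of all 5 groups were fitted over 20 arrays with limma 3.58.1 in R 4.3.3, with Benjamini-Hochberg adjustment across the 26001 probes kept. The fit was tried on simulated data that held no scan-day effect and no detection limit, so that trial cannot speak to either. With 4 arrays a group, their number limits the precision. P-values measure the spread between arrays. Probes were named from the files' descriptions and a RefSeq gene table of assembly mOryCun1.1. Of the 43603 probes, 40499 stayed unnamed.

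Genes named are the 10 largest called rises and 10 largest called falls whose groups did not overlap, up to 3 members per list and a fixed panel. Another 13 were added after their values were seen: CDK6, DHRS4, EEF1B2, EIF2AK1, EIF3I, KCNA5, MLNR, MYL1, PRLR, RAB2A, RPL23, RPS20 and SLC29A2. EEF1A1, RPLP0, HSP90B1 and SERPINH1 were also named for comparison after their values were seen, as was the list of translation genes. Some genes are not reported here. The comparison and the lists were chosen with earlier results of these data known. Alternatives covered background correction, scaling, filters, the model and leaving out each array.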

Additional observations from a re-analysis of the deposited data

Results flagged for a closer look

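In a group of 4 arrays, a single array stood apart from the other 3 for 11 of 148 series tested, 2 groups for each of 74 genes, where chance gives about 1 in 20. At 8 weeks, VIPR1 read -1.37 on replicate 3, against -3.38 to -3.18 on the others. LUM read 5.12 on replicate 1, against 6.03 to 6.14, and APOC4 read -1.84 on the same array, against -2.23 to -2.18. On 8-week replicate 4, LEP read -2.50 against -2.30 to -2.28, MMP3 read -1.0 against -0.62 to -0.57, and CALD1 read 5.52 against 5.19 to 5.24. On 8-week replicate 2, PRLR, the prolactin receptor, read -2.51 against -2.26 to -2.25. At 2 weeks, SLC5A1 read -2.96 on replicate 1, against -1.75 to -1.68, and KCNJ11 read -4.04 on that array, against -3.50 to -3.43. CALR read 8.38 on 2-week replicate 3, against 8.57 to 8.60, and MLNR, the motilin receptor, read -2.20 on 2-week replicate 4, against -5.92 to -5.34.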

How the results depend on the processing

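The main analysis called 2296 probes and 62 named genes. Probes and genes called were 33 and 0 with normexp (2110 and 64 at an unadjusted p under 0.05 in limma), 722 and 22 with an offset of 50, 1171 and 41 with quantile normalization, 1467 and 35 with only probes well above background on all 8 arrays, 723 and 30 with a log2 difference of at least 1, and 3781 and 110 with array weights. Leaving out 1 array gave 1354 to 2136 probes and 43 to 53 genes. Other settings stayed within 1.5 times the main counts. Of 45 called genes followed across settings, 45 kept the call with the authors' value table, 42 with median centring, 36 with the percentile over probes well above background on all arrays, 27 with quantile normalization and 19 with the offset.

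Replicate numbers are shared by both groups but did not pair the arrays, with correlations of deviations of 0.117, -0.263, -0.044 and -0.258 for equal numbers. The replicate block gave 2230 probes and 62 genes, 57 of them shared with the main analysis.

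Signs turned under normexp for CASP14 (-0.11), CD5 (-0.26), FMO2 (-0.28), HTR3B (-0.19), KCNA5 (-0.03), KCNE1 (-0.11), NPPA (-0.32), SLC12A3 (-0.12) and TH (-0.31), and among genes not called for ACAN (-0.22), CALD1 (0.02), COL10A1 (0.04), HAS2 (-0.53), IGF1R (-0.03), LDHB (0.09) and TNF (-0.04). Median centring turned COL2A1 (-0.01), HAS2 (-0.17) and TIMP1 (-0.10). Array weights turned CD14 (0.06), COL2A1 (-0.32), IL1B (0.13) and MMP3 (0.13). HAS2 also turned with quantile normalization (-0.18), the offset (-0.14) and the authors' table (0.00 after rounding). The percentile over probes above background on all arrays moved IL1B to 0.00 and MMP3 to 0.10, and the mean over probes moved IL1B to 0.14 and SNURF to 0.05. Without 1 array, COL10A1 ran from -1.09 to 0.31, COL2A1 from -0.30 to 0.67, HAS2 from -0.21 to 0.17, IHH from -0.43 to 0.05, IL1B from -0.46 to 0.41, MMP3 from -0.13 to 0.16, TIMP1 from -0.01 to 0.17 and TNNC2 from -1.04 to 0.02. The cause of these changes was not tested. A scan-day term could not be fitted because each group lies in 1 day.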

Other observations

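Some called genes outside the comparisons above also differed between the groups, and their names were chosen after their values were seen. SLC29A2, an equilibrative nucleoside transporter, rose by 1.40 (SE 0.17, adjusted p = 4.37e-05 in limma) and lost the call under normexp alone of the alternatives. CDK6, a kinase of the G1 phase, rose by 0.52 (SE 0.14, adjusted p = 0.0322), with 4 of 5 probes called, and lost the call without 8-week replicate 1 or 4 or 2-week replicate 1, 2 or 4 (adjusted p up to 0.12). CDK6 also lost it with median centring (0.34, adjusted p = 0.164), quantile normalization (0.0993), the offset (0.11), no filter on dim probes (0.0689) and a fit of only the 8 arrays (0.0963). PRLR rose by 0.87 (SE 0.16, adjusted p = 0.00221), or by 0.38 without a call with the offset (adjusted p = 0.154). DHRS4, a retinal reductase, fell by 0.48 log2 units (SE 0.11, adjusted p = 0.013), with 5 of 5 probes called. Quantile normalization gave -0.25 (adjusted p = 0.222), and the offset of 50 also ended the call (adjusted p = 0.0703). MLNR rose by 2.08 (SE 0.58, adjusted p = 0.032), but its groups overlapped, and its 2-week mean of -4.8 lay below the 2-week detection limits, -4.11 to -3.31. Without 2-week replicate 4 the difference was 2.95 (adjusted p = 2.01e-05), and without any other single array the call was lost.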
